A study of Rattus norvegicus with 64 samples.

Results

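The dorsal hippocampus (HPCd) of female rats that drank the low-calorie sweetener acesulfame potassium (ACE-K) was compared, gene by gene, with that of females that drank water (CTL). The members were the 16 HPCd libraries of the female rats C107 to C122, out of 64 libraries in the series, which also holds the HPCd of 16 males and libraries of the nucleus accumbens. Treatment came from the sample labels: the 8 rats with even numbers had ACE-K and the 8 with odd numbers had water. All were Sprague Dawley rats, killed at postnatal day 80. ACE-K rats had received the sweetener daily from a sipper tube from the juvenile period until postnatal day 80, through adolescence and early adulthood. The solution was 0.1% w/v, at a dose of about 15 mg per kg of body weight. CTL rats got the same volume of reverse-osmosis water, also from a sipper tube. Both groups were housed singly with free access to standard chow and water. Chow and sipper tubes were taken away in the light cycle of the day of tissue collection, and the phase of the oestrous cycle was not recorded. The question was whether daily intake of the sweetener, from the juvenile period up to tissue collection, went along with different transcripts in a brain region used for memory.

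The hippocampus is a cortical structure that rodents need to remember places and the contexts in which objects were met. Its dorsal end is tied most closely to spatial and contextual memory. Sensory information from the entorhinal cortex enters mainly through granule cells of the dentate gyrus, passes through the CA3 field and leaves through pyramidal cells of the CA1 field. ACE-K itself is tasted through the sweet receptor of the tongue and gut and is excreted largely without being metabolized. The females here were studied as young adults, with the sweetener given up to the day of tissue collection. The punches were aimed at dorsal CA1 and dorsal dentate gyrus, and held neurons, glia and vessels together. In such bulk tissue, fewer cells of a type and less RNA per cell cannot be told apart. The count table gives Ensembl gene IDs that were not paired with gene symbols here. Marker genes of the hippocampus, of its cell types and of neighbouring tissue could therefore not be looked up, the labelled region was not checked, and genes are given by ID or as groups.

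The libraries were deep. CTL females had 14304052 to 27800442 counts on genes and ACE-K females had 17438840 to 28292936, a difference in means that was small beside the spread (exact permutation test, 2-sided, p = 0.704). No 2 females of a group were alike within sampling noise, since the chi-square per degree of freedom between rats of a group was at least 4.07, and each rat was counted as 1 replicate. Body weight at postnatal day 80 was 236.8 ± 18.1 g in ACE-K and 237.6 ± 18.7 g in CTL females (SD, n = 8 each; exact permutation test, p = 0.934). As a check of the labels, 2 IDs were at least 16-fold higher in every female than in every HPCd male of the series, and 6 IDs were at least 16-fold higher in every male.

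Of 32623 IDs, 21556 had at least 1 count in a female, and 15651 were abundant enough to be tested. No ID differed between ACE-K and CTL females after correction for multiple tests. The smallest adjusted p was 0.989 in the quasi-likelihood test of edgeR with Benjamini-Hochberg adjustment, and DESeq2 also called 0 IDs. At an unadjusted p under 0.05 there were 635 IDs by edgeR (4.06% of those tested) and 630 by DESeq2. Where no ID differs, this threshold passes a share of about 0.05 of the IDs, which is more than the 4.06% found. Of the 635, 204 were higher and 431 lower in ACE-K females. Differentially expressed genes (DEGs) were then taken with the suggestive thresholds of the study, an unadjusted p under 0.05 and a log2 fold change of at least 0.4 in size. By this rule 207 IDs were DEGs (1.32%), 34 higher in ACE-K (0.217%) and 173 lower (1.11%). Lower DEGs thus made up 83.6% of the DEGs, although 8174 of all tested IDs were higher and 7477 lower in ACE-K, and the median log2 fold change of all tested IDs was 0.004. The skew was not limited to the DEGs. At any p, 561 tested IDs passed the fold threshold as lower and 166 as higher in ACE-K.

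The DEGs were mostly transcripts of low abundance. Abundance is given as CPM, the read count scaled to the normalized library size, not to the length of the transcript. A tested ID had a median of 17.2 CPM, or 367 counts per rat. The DEGs higher in ACE-K had a median of 0.314 CPM, about 6.69 counts per rat, and reached at most 1.73 CPM. The lower DEGs had a median of 0.925 CPM, about 20 counts per rat, with the most abundant at 172 CPM. The median log2 fold change was 0.81 for the higher DEGs and −0.72 for the lower ones, with extremes of 2.11 and −2.62. The share of IDs called fell with abundance. Below 1 CPM, 5.21% of 2305 IDs were DEGs, 29 higher and 91 lower. From 1 to 10 CPM, 5 were higher and 52 lower among 3884 IDs. From 10 to 100 CPM there were 0 higher and 28 lower among 7335, and at 100 CPM and above 0 higher and 2 lower among 2127. Every DEG above 10 CPM was therefore lower in ACE-K females. Over all tested IDs the median log2 fold change was −0.10 below 1 CPM and −0.03 from 1 to 10 CPM. It was 0.007 from 10 to 100 CPM and 0.03 at 100 CPM and above. Among IDs of low abundance, where most DEGs lay, a lower level in ACE-K was thus general and not particular to the DEGs.

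**Figure D1:**
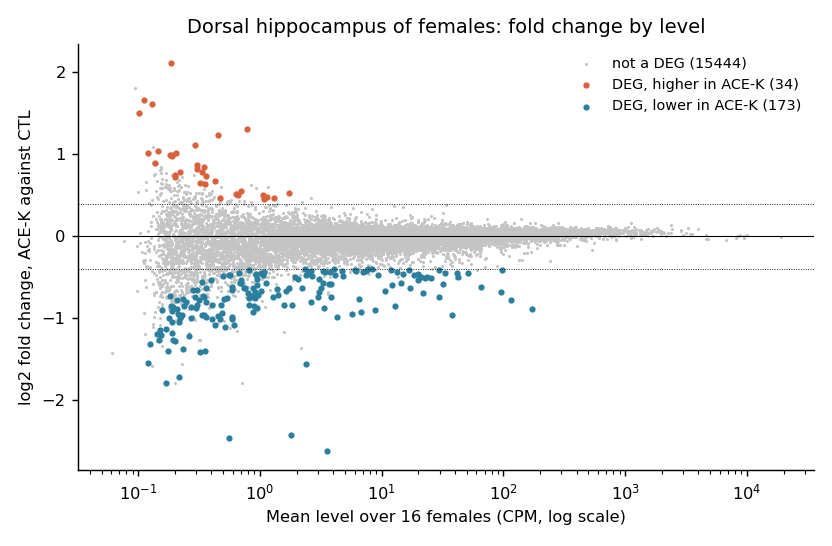
Log2 fold change of ACE-K against CTL females (vertical axis) for each of 15651 tested IDs by its mean level over the 16 females in CPM (horizontal axis, log scale); dotted lines mark the fold threshold of 0.4. Orange points are the 34 DEGs higher in ACE-K, all at or below 1.73 CPM, and blue points the 173 lower DEGs, which extend to 172 CPM.

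For most transcripts the comparison left little room for a large difference. The median standard error of a log2 fold change was 0.07. For 11572 IDs (73.9%) the whole 95% confidence interval lay inside ±0.4, the fold threshold for a DEG, and for 14539 IDs (92.9%) it excluded a 2-fold difference either way. These shares followed abundance. Intervals inside ±0.4 were seen for 98.7% of IDs at 100 CPM and above, 95.9% from 10 to 100 CPM, 62.3% from 1 to 10 CPM and 0.824% below 1 CPM. Among the IDs below 1 CPM the median standard error was 0.32, so a difference of the size of the fold threshold was not detectable there for most of them. The intervals are not adjusted for the number of IDs.

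ENSRNOG00000017095 had the smallest p of all IDs and was the most abundant DEG higher in ACE-K. Its levels in the 8 CTL females were 0.858, 1.07, 1.37, 1.47, 1.58, 1.59, 1.63 and 1.72 CPM. In the 8 ACE-K females they were 1.68, 1.81, 1.99, 2.04, 2.15, 2.22, 2.24 and 2.30 CPM. Only the lowest ACE-K rat, C108, fell within the CTL range, and 7 of 8 ACE-K rats were above every CTL rat. The means were 2.05 ± 0.217 and 1.41 ± 0.301 CPM (SD, n = 8 each). The log2 fold change was 0.53 (SE 0.13, 95% CI 0.25 to 0.80, unadjusted p = 0.00083, adjusted p = 0.989 in edgeR). In HPCd males the same ID differed by 0.10 on the log2 scale (SE 0.18, unadjusted p = 0.605 in edgeR), and the interaction of treatment with sex had an unadjusted p of 0.0597 (adjusted p = 0.606).

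ENSRNOG00000029591, the next DEG higher in ACE-K by p, rested on few reads. ACE-K females had 1, 2, 3, 4, 6, 6, 6 and 6 counts, and CTL females had 0, 0, 1, 1, 1, 2, 2 and 4. Although 5 of 8 ACE-K rats had a level above every CTL rat, the whole difference was one of a few reads per library. Levels were 0.202 ± 0.0925 CPM in ACE-K and 0.0581 ± 0.0545 CPM in CTL females (SD, n = 8 each), and the log2 fold change was 1.62 (SE 0.47, unadjusted p = 0.00268, adjusted p = 0.989 in edgeR). No CTL female reached a normalized count of 5, so this ID passed the filter for testing only through ACE-K females. Such a filter favours a call as higher in ACE-K, so its place among the DEGs is not support for a difference. It was too low to be tested in males, or with the filter of at least 10 counts in every female.

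Among the lower DEGs, ENSRNOG00000013387 had the smallest p. CTL females were at 2.89, 3.21, 3.30, 3.53, 3.84, 4.66, 4.82 and 5.46 CPM, and ACE-K females at 2.20, 2.26, 2.37, 2.40, 2.41, 2.90, 3.36 and 3.39 CPM. The groups overlapped between 2.89 and 3.39 CPM, and 5 of 8 CTL rats were above every ACE-K rat. The CTL rats highest in this ID were C119, C107 and C117. Means were 2.66 ± 0.488 CPM in ACE-K and 3.96 ± 0.911 in CTL (SD, n = 8 each), a log2 fold change of −0.57 (SE 0.14, 95% CI −0.86 to −0.27, unadjusted p = 0.000864, adjusted p = 0.989 in edgeR). In males the direction was the opposite, with a log2 fold change of 0.41 (SE 0.18, unadjusted p = 0.0376 in edgeR). The interaction of treatment with sex was −0.97 on the log2 scale, with an unadjusted p of 0.000266 that did not hold after adjustment (adjusted p = 0.319 in edgeR).

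ENSRNOG00000020250, the next lower DEG by p, was at 5.42, 5.63, 6.55, 7.06, 7.07, 7.31, 8.02 and 9.77 CPM in CTL and at 4.11, 4.51, 5.27, 5.32, 5.44, 5.49, 5.84 and 6.19 CPM in ACE-K females. The rats C107 and C119 were again the highest, and 6 of 8 CTL rats were above every ACE-K rat. The log2 fold change was −0.42 (SE 0.11, unadjusted p = 0.00134, adjusted p = 0.989 in edgeR), close to the fold threshold. It fell under the threshold without C107 (−0.35), C118 (−0.38), C119 (−0.39) or C120 (−0.39), with the unadjusted p still under 0.05 each time. In males the log2 fold change was 0.26 (SE 0.15), and the interaction of −0.68 had an adjusted p of 0.319 in edgeR.

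**Figure D2:**
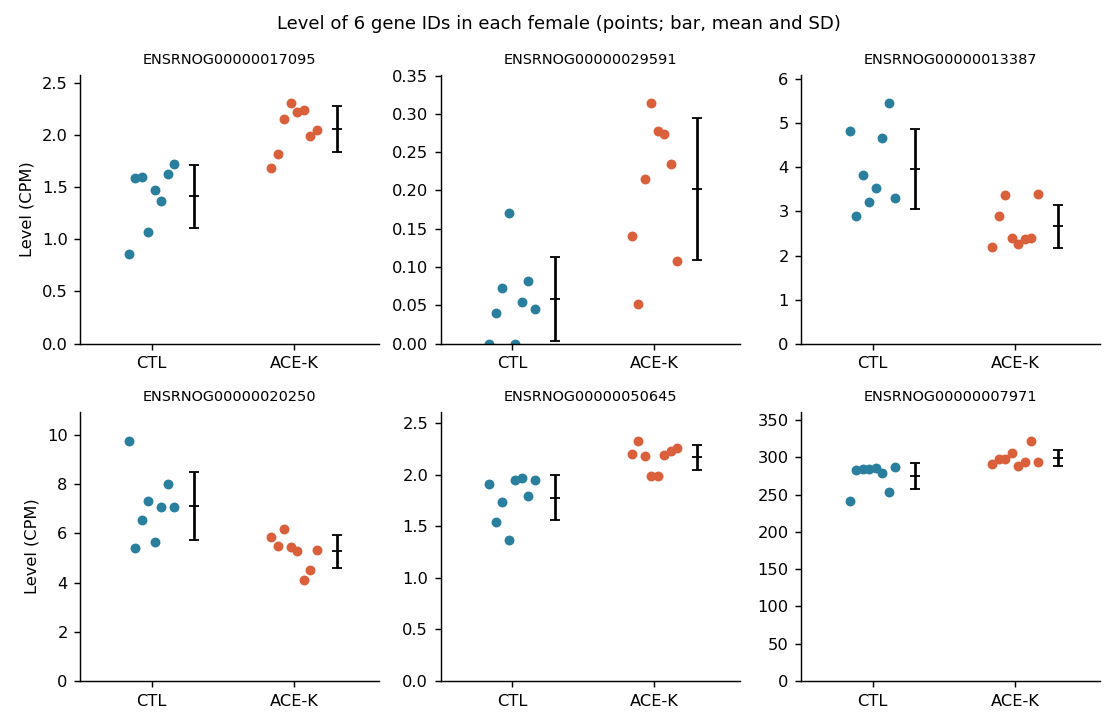
Level in CPM (vertical axes, from 0) of 6 gene IDs in each of 8 CTL (blue) and 8 ACE-K (orange) females, with the mean and SD of each group as a black bar. In the first 4 panels, the DEGs with the smallest p in each direction, the groups overlap. In the last 2 panels every ACE-K rat is above every CTL rat, which a few of the many IDs tested reach by chance.

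In 2 IDs (0.0128% of those tested) every ACE-K female was above every CTL female, and in 0 was every ACE-K female below. Neither was a DEG, because the differences were small. Where no ID differs, a few of the many IDs tested still separate the groups fully by chance. The 2 found are thus not evidence of a difference. They are named because they are the only 2, after their values were seen. ENSRNOG00000007971, an abundant transcript, was at 289 to 322 CPM (median 296) in ACE-K and at 241 to 286 CPM (median 284) in CTL females. The log2 fold change was 0.12 (SE 0.04, unadjusted p = 0.00718, adjusted p = 0.989 in edgeR). C107 and C119 were its 2 lowest CTL rats. Its log2 fold change was 0.07 both with the share of reads that fell on no annotated gene as a covariate (unadjusted p = 0.0742 in edgeR) and without C107, C117 and C119 (unadjusted p = 0.0580 in edgeR). The gap between the groups was about 2 CPM: the lowest ACE-K rat had 288.5 CPM and the highest CTL rat 286.4 CPM. ENSRNOG00000050645 was at 1.99 to 2.33 CPM in ACE-K and at 1.37 to 1.97 CPM in CTL females. The log2 fold change was 0.29 (SE 0.10, unadjusted p = 0.00714, adjusted p = 0.989 in edgeR). With CPM by library size alone, without the TMM factors, 0 IDs separated the groups. No ID was detected in all rats of one group and at 0 in all of the other.

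Most of the lower DEGs had their highest level in 1 of 2 CTL rats. For 86 of the 173, the highest of the 16 females was C107, and for 54 it was C119, so these rats held the maximum of 140 (80.9%). A mean z score of the 173 DEGs, each scaled to its mean and SD over the 16 females, was 1.53 in C107, 1.17 in C119 and 0.68 in C117. The other CTL rats lay at 0.51 (C113), 0.44 (C111), 0.19 (C121), −0.15 (C115) and −0.32 (C109). The 8 ACE-K rats lay between −1.05 (C120) and −0.15 (C112). Of the CTL rats only C109 fell inside that range, with C115 (−0.147) just above C112 (−0.153). The DEGs were picked for the difference between the groups, so the split of these scores by group is a description and not evidence of it. Of the lower DEGs, 127 (73.4%) varied more among CTL than among ACE-K females, against 50.9% of all tested IDs. Of the 34 higher DEGs, 24 varied more among ACE-K than among CTL females. In both directions, most DEGs thus varied more in the group where their level was higher. The maxima of the higher DEGs fell in all 8 ACE-K rats, at most 8 of them in 1 rat (C118).

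These CTL rats also stood apart in the share of reads that the counting assigned to no gene, which has the counts on genes in its denominator and so is not independent of them. It was 24.29% in C107, 23.04% in C117 and 23.02% in C119, above the 20.3% to 22.1% of all ACE-K females. The other CTL rats had 21.01% to 21.89%. The group means were 21.3 ± 0.651% in ACE-K and 22.2 ± 1.13% in CTL females (SD, n = 8 each), a difference that did not pass the exact permutation test (2-sided, p = 0.0695, adjusted p = 0.243 over 7 measures per rat). CTL females also had more IDs with at least 1 count, 17768 ± 193 against 17534 ± 184 (exact permutation test, p = 0.0284, adjusted p = 0.199). C107 had the fewest counts on genes of all 16 females.

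The level of the lower DEGs rose with this share from rat to rat. The median correlation of a lower DEG with the share of reads on no gene was 0.69 over the 16 females, and 171 of 173 were positive. The lower DEGs were chosen for a higher level in CTL females, which also had the higher mean share. A positive correlation over the 16 females is thus partly built in by that choice. Inside the groups the medians were 0.75 over the 8 CTL rats, with 161 of 173 positive, and 0.30 over the 8 ACE-K rats, with 126 of 173 positive. Over all tested IDs the median was −0.03, with 46.8% positive. The 34 higher DEGs had a median of −0.26 over the 16 females, where the choice of the DEGs likewise favours a negative sign. In the 16 HPCd males, whose libraries took no part in choosing these DEGs, 166 of the lower DEGs could be tested. Their median correlation with the males' share of reads on no gene was 0.51, with 135 (81.3%) positive, against a median of −0.02 and 47.9% positive over all IDs. The DEGs of a set share libraries and are not independent, so these are descriptions without a p.

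**Figure D3:**
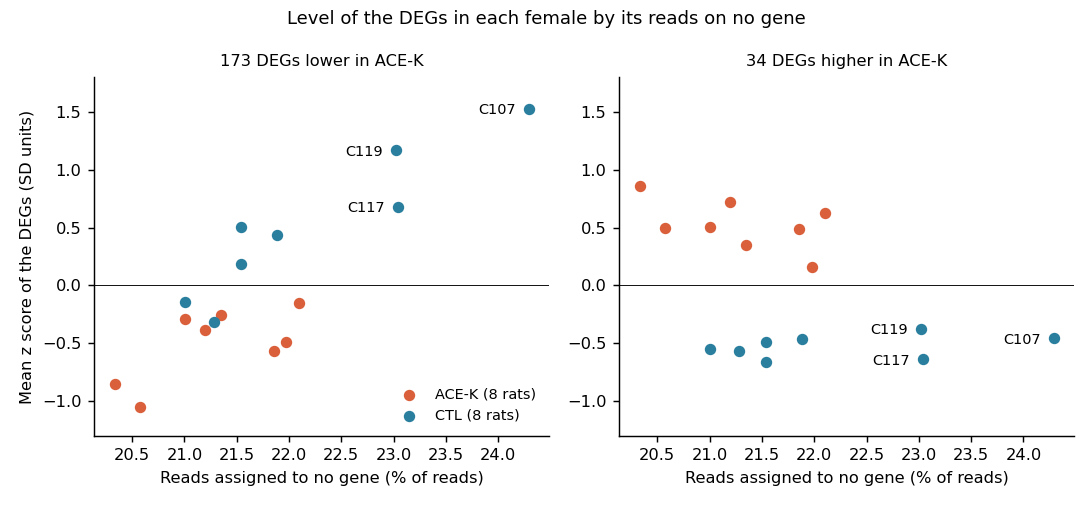
Mean z score of the 173 DEGs lower (left) and the 34 DEGs higher (right) in ACE-K, in SD units (vertical axes), against the share of reads assigned to no gene in percent (horizontal axes), 1 point per female. C107, C117 and C119 lie at 23.02% to 24.29% with the 3 highest scores of the lower DEGs, 0.68 to 1.53; the vertical split of the groups follows from the choice of the DEGs.

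With the share of reads on no gene as a covariate, edgeR called 93 DEGs, 48 higher and 45 lower in ACE-K, and 48 of them were among the 207. The excess of lower DEGs was then gone, with 48.4% of the DEGs lower. The median log2 fold change of the 173 lower DEGs went from −0.72 to −0.33 in this fit. The sign stayed as it was for 203 of the 207 DEGs, which were chosen for it in the same libraries. Without C107, C117 and C119 the DEGs were 51 higher and 54 lower IDs, of which 22 and 35 were among the 207. ENSRNOG00000013387 had a log2 fold change of −0.36 with the covariate and −0.33 without the 3 rats, and ENSRNOG00000020250 of −0.22 and −0.28, all under the fold threshold. Their unadjusted p in edgeR stayed under 0.05 in these fits (0.0134 and 0.0203 for the first ID, 0.00952 and 0.0185 for the second). ENSRNOG00000017095 and ENSRNOG00000029591 stayed DEGs in both, the second with few reads and a filter passed only through ACE-K females. Of single rats, C107 and C119 moved the count of lower DEGs by more than 1.5 times. Without C107 there were 44 higher and 94 lower DEGs, and without C119 there were 148 DEGs, of which 40 were higher. The median log2 fold change of the 173 was −0.56 without C107 and −0.61 without C119, so the calls changed more than the folds. No alternative gave an ID with an adjusted p under 0.05. Whether the share of reads on no gene, the tissue in these punches or the treatment set the level of these transcripts was not tested.

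**Figure D4:**
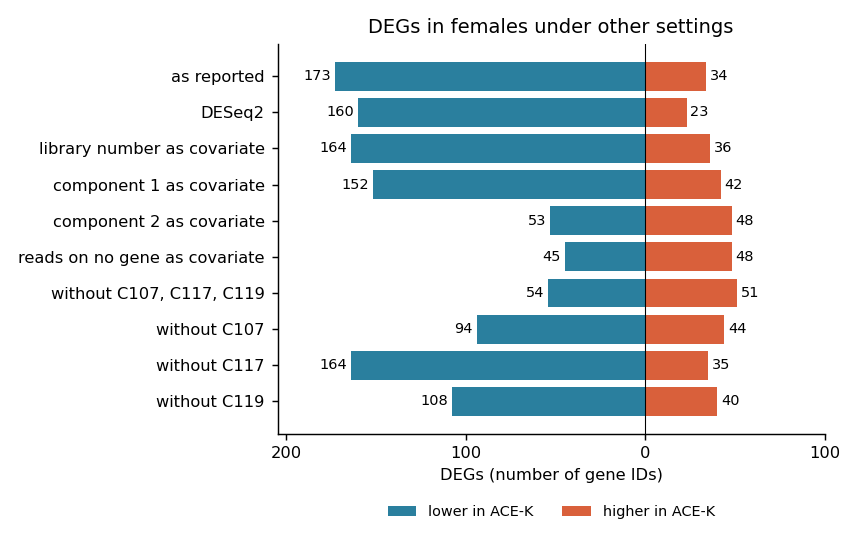
Number of DEGs (horizontal axis) lower (blue, to the left of 0) and higher (orange, to the right) in ACE-K females, as reported and under 9 other settings, with the other filters on low counts not drawn. Lower DEGs numbered 173 as reported and 45 to 54 with the share of reads on no gene or the second component as a covariate or without C107, C117 and C119, while higher DEGs lay between 23 and 51 in the settings drawn, against 131 with no filter and 5 with at least 10 counts in every female.

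Principal components of the 500 most variable IDs did not separate the groups. The first component took 51.3% of the variance, with scores of 1.36 ± 6.70 in ACE-K and −1.36 ± 6.20 in CTL females (SD, n = 8 each; exact permutation test, p = 0.408, adjusted p = 0.658). It followed a small block of IDs that ran together. A single ID made up 23.7% of it and the 10 leading IDs 57.3%, each of the 10 correlating with the first at r of at least 0.852 across the rats. The leading ID ranged from 0.608 to 2465 CPM. It was above 300 CPM in 7 rats, 5 CTL and 2 ACE-K, and at 58.8 CPM or less in the other 9, 3 CTL and 6 ACE-K. Its log2 fold change was −0.12 (SE 1.41, unadjusted p = 0.936 in edgeR), and 0 of the 10 leading IDs were DEGs. Adding the first component to the fit gave 194 DEGs, 42 higher and 152 lower.

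The second component took 13.9% of the variance, with scores of −1.32 ± 2.92 in ACE-K and 1.32 ± 3.35 in CTL females (SD, n = 8 each; exact permutation test, p = 0.114, adjusted p = 0.266). C107 had the highest score and C119 the next. The score followed the share of reads on no gene, with Pearson's r = 0.786 (permutation test, p = 0.00022, adjusted p = 0.00176) and Spearman's rho = 0.674 (permutation test, p = 0.00496, adjusted p = 0.0397). Without C107 and C117, the rats farthest from the median share, r was 0.619. Within the CTL rats r was 0.940 (exact permutation test, p = 0.000496), and within the ACE-K rats it was 0.375 (exact permutation test, p = 0.347), so the relation was not shown among ACE-K females. The second component was related to the share only after the data were seen, and the adjusted values cover 8 relations of the 2 components to library measures and body weight. None of the planned relations of the first component passed adjustment. The nearest was body weight, at r = −0.484 over the 16 females (permutation test, p = 0.0579, adjusted p = 0.232). Within the CTL rats r was −0.781 (exact permutation test, p = 0.0349, not adjusted), and within the ACE-K rats −0.217 (same test, p = 0.600). For total counts, rho was 0.326 over the 16, 0 within the CTL rats and 0.833 within the ACE-K rats (exact permutation test, p = 0.0154, not adjusted). Relations were also read within the 7 rats with the leading ID above 300 CPM and the other 9, split after seeing the data. There the smallest of 8 adjusted p was 0.460 for r and 0.384 for rho (exact permutation tests).

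**Figure D5:**
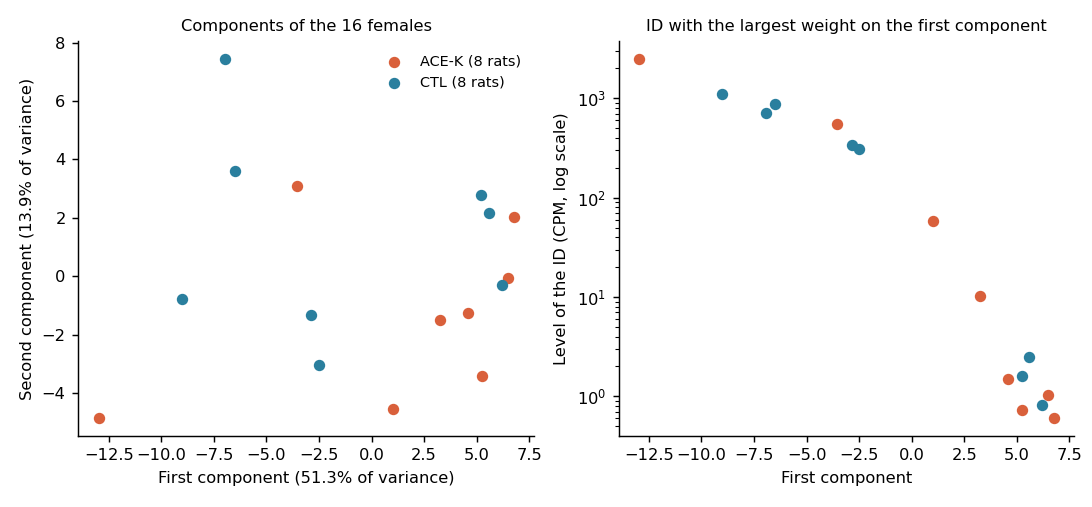
Left, scores of the 16 females on the first and second principal components, which took 51.3% and 13.9% of the variance (8 CTL, blue; 8 ACE-K, orange). Right, the level in CPM (log scale) of the ID with the largest weight on the first component against the score, from 0.608 to 2465 CPM, with rats of both groups at either end.

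The DEGs of females were set beside the same comparison in HPCd males, which shares no library with it. Of the 166 lower DEGs tested in males, 127 (76.5%) were higher in ACE-K males, with a median log2 fold change of 0.29. Over all IDs tested in both sexes, 53.5% were higher in ACE-K males and the median was 0.007. Among the 166, 28 were DEGs higher in ACE-K males and 1 was a male DEG lower in ACE-K, beside 1.09% and 0.248% of all IDs tested in males. These shares over all IDs are not matched for abundance. The 173 lower DEGs had a median of 0.925 CPM in females, against 17.2 CPM for all tested IDs. In females 5.21% of IDs below 1 CPM were called, against 1.32% of all, and shares by abundance were not computed in males. Of the 31 higher DEGs tested in males, 12 were higher and 19 lower in ACE-K males, with a median of −0.07. In males the share of reads on no gene was 21.9 ± 0.787% in ACE-K and 21.6 ± 0.630% in CTL rats (SD, n = 8 each; exact permutation test, p = 0.437), and no fit of the males with this share as a covariate was run. The interaction of treatment with sex had an unadjusted p under 0.05 for 67.1% of the 173 lower DEGs and 13 of the 34 higher ones, beside 8.58% of 16012 IDs tested; the females' values chose these DEGs and enter this test, so the counts are not independent support. No ID passed the adjusted interaction test in edgeR, where the smallest adjusted p was 0.319, with 1374 IDs at an unadjusted p under 0.05, or in DESeq2, with 1361.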

How the data were processed

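RNA from frozen HPCd punches of 16 females was sequenced as single reads from libraries made with an mRNA-Seq kit. Per the submitters' notes and methods, FastQC was used for read quality, Trimmomatic for trimming, STAR for alignment to Rnor6.0 and HTSeq for counting, and the authors deposited raw counts per Ensembl gene ID. Versions, annotation release and strand setting are not given in the sources used here, so reads of overlapping or antisense genes may not be separated. The 5 HTSeq summary rows were left out of all tests; reads on no gene are given as a share of all reads in the table, summary rows included. Columns were matched to rats by animal number, and 0 columns of the table were unassigned.

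From the deposited counts, edgeR 4.0.16 (R 4.3.3) normalized the 16 females by TMM and ran its quasi-likelihood test. An ID was tested where 3 or more females had a normalized count of 5 or more, and p values were adjusted by the Benjamini-Hochberg method over all IDs tested. CPM are relative to the normalized library size. Standard errors are the log2 fold change over the square root of F. Components used counts transformed by DESeq2 1.42.0, which also gave an alternative test. Per-rat measures were compared over all 12870 splits of 8 and 8 rats, and pooled correlations with 100000 permutations. Alternatives were DESeq2, its size factors, 2 other filters, covariates, a fit of both sexes, and each rat left out; 2 were added after seeing the data.

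The members, lists and tests were chosen with earlier results of these data known. Gene lists and cell type markers, and the share of mitochondrial genes, could not be computed from IDs. The rule for naming, the DEGs with the smallest p in each direction and the IDs whose groups do not overlap, was applied to IDs in place of symbols, to 2 DEGs per direction, a change made because the table holds no symbols. In simulated counts of these females with 200 IDs changed 2-fold (15541 tested), 194 were called DEGs and 176 had an adjusted p under 0.05. Of the unchanged IDs, 181 were also called DEGs, 4 with an adjusted p under 0.05, beside 207 DEGs in the data. The changed IDs were picked at random from all abundances. Each ID was drawn independently, so the simulation lacks the variation that IDs share from rat to rat in the data.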

Additional observations from a re-analysis of the deposited data

Results flagged for a closer look

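Among 28 sets of 8 rats checked for a single rat far from the others, 2 had one, and chance gives about 1 in 20. The ACE-K female C112 had 28292936 counts on genes, far above the next ACE-K rat at 22082635, which makes it the most deeply sequenced of the 16 libraries. The ID that leads the first component was at 2465 CPM in the ACE-K female C120, above the next ACE-K rat at 548 CPM, while CTL rats reached 1105 CPM. Without C112 there were 239 DEGs and without C120 there were 281. Their part in the comparison was not tested further.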

How the results depend on the processing

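No ID reached an adjusted p under 0.05 under any alternative. The DEGs were 1.32% of the IDs tested, and their count stayed within 1.5 times of 207 with DESeq2, its size factors, both sexes in 1 fit, and the first component, library number or body weight as a covariate. It moved with the filter: with no filter 2.38% of IDs were called, 131 as higher and 383 as lower in ACE-K, and with at least 10 counts in every female 0.593%, 5 as higher and 74 as lower, as fewer IDs were tested. It also moved with the share of reads on no gene as a covariate (0.594%, with 45 lower and 48 higher), without C107, C117 and C119 (0.671%, with 54 lower and 51 higher) and with the second component as a covariate (0.645%, with 53 lower and 48 higher), the last 2 chosen after seeing the data. Leaving out each rat in turn gave 138 to 281 DEGs (0.882% to 1.795%), 28 to 44 higher and 94 to 243 lower. The extremes were 138 without C107, with 29 higher and 85 lower DEGs of the 207 among them, and 281 without C120, of which 142 were among the 207. The 2 IDs whose groups do not overlap became 0 with CPM by library size alone. Of 161 values of the 6 named IDs under alternatives, 149 stayed on the same side of their threshold, 12 lost it and 0 changed sign, where the threshold is that of a DEG for the 4 DEGs and an unadjusted p under 0.05 for the other 2. These IDs were chosen for their difference in the same libraries, and most alternatives leave out only 1 rat. A kept sign is thus nearly fixed by that choice and is not independent support. The losses were 3 values of ENSRNOG00000013387, 7 of ENSRNOG00000020250 and 2 of ENSRNOG00000007971. In the losses of ENSRNOG00000013387 and ENSRNOG00000020250 only the fold fell short, with the unadjusted p in edgeR still under 0.05. The 2 lower DEGs also fell under the fold threshold with the second component as a covariate (−0.39 and −0.26). No paired analysis was run, because the labels match no ACE-K female to a CTL female. Replicate numbers only count the rats within each group. At a median of 7.75 counts per rat, IDs below 1 CPM allow only large differences to be seen.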
